A study of Homo sapiens and Mus musculus with 74 samples.

Results

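Kidney and brain of wild-type mice were compared for translation efficiency (TE), the amount of ribosome-protected fragments (RPFs, also called footprints) of a gene relative to its mRNA. The comparison covers 12 of the 74 samples of the series, namely 3 Ribo-seq and 3 RNA-seq libraries of WT kidney and as many of WT brain. A gene was represented by its coding transcript with the longest protein, and it was kept where all 12 libraries held at least 10 counts. This left 10334 of the 22484 coding genes of the mouse table. The mice were 10-week-old males with both Rpl41 alleles intact, the control animals of a line edited in C57BL/6J zygotes, and they received no treatment. Whole tissue was lysed, so each value averages over all cell types of the organ, and fewer cells of a type cannot be told apart from less RNA per cell. The labels number the libraries of a group from 1 to 3 without naming an animal, so p-values measure the spread between these libraries.

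Ribo-seq sequences the mRNA fragments that translating ribosomes shield from nuclease, and RNA-seq of the same tissue gives the mRNA pool from which those ribosomes were loaded. Where both differ between tissues by the same factor, the difference lies in mRNA abundance and TE is equal. Where they do not, TE differs, which is known for mRNAs with 5′ terminal oligopyrimidine (TOP) tracts, upstream open reading frames or iron-responsive elements. All differences below are kidney minus brain on the log2 scale. Each assay was scaled on its own, so a positive TE difference means more footprints per mRNA in kidney relative to other genes. An absolute difference in footprints per mRNA between the tissues was not measured. Levels are CPM, a transcript's counts scaled to a common total over coding genes. Since they are not divided by length, they are compared only within a gene.

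Ribo-seq libraries held 3711826 to 7115695 counts over coding genes for kidney and 2401861 to 5652410 for brain. RNA-seq libraries held 16051295 to 19159135 for kidney and 27424267 to 30792524 for brain. The genes tested held 80.1% to 87.3% of them. Log levels of 2 libraries of the same group correlated across genes at 0.964 to 0.993 (Pearson's r, a description). The tissue labels matched their markers. The 9 kidney markers, among them the endocytic receptor Lrp2 and the loop-of-Henle protein Umod, summed to 38312 to 49934 CPM in kidney RNA-seq and to 2.09 to 2.31 CPM in brain RNA-seq. The 9 brain markers, among them the synaptic protein Snap25 and the myelin protein Mbp, summed to 9783 to 10383 CPM in brain RNA-seq and to 6.03 to 12.2 CPM in kidney RNA-seq.

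The measurements held 2 features that move with many TE differences and are therefore described first. The first concerns sequence that occurs more than once in the genome. Kidney RNA-seq held almost no counts on such sequence, while the other 3 groups did. Transcripts annotated as processed pseudogenes, which are genomic copies of mRNAs, took 0.0267% to 0.0331% of all counts in kidney RNA-seq. Their share was 1.46% to 1.68% for brain RNA-seq, and among footprints it was 3.63% to 4.21% for brain and 4.28% to 4.74% for kidney. The study's methods state that reads mapping to several places were kept, and whether the kidney RNA-seq table was made in another way was not tested.

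The stretches below show what the libraries had to tell apart. Each is 30 bases from the middle of a coding exon (GRCm38, 5′ to 3′ on the gene's strand). The windows of 50 bases around the mt-Co3 and mt-Nd4l stretches occur once more in the genome, at chr1:24613565-24613594 and chr1:24612539-24612568 on the minus strand, inside a nuclear copy of the mitochondrial genome. The window of Rps29 has 1 further exact copy, that of Ppia 2 and that of Rps6 7. Those of mt-Cytb, Rack1, Atp5b and Hspa5 have 0.
mt-Co3, chrM:8984-9013: tctagaagtcccactacttaatacttcagt
mt-Nd4l, chrM:10009-10038: tcagtaacttccctaaactccaactccata
Rps29, chr12:69158696-69158725: aatacgggctgaacatgtgccgccagtgct
Ppia, chr11:6419185-6419214: ttcatcctaaagcatacaggtcctggcatc
Rps6, chr4:86854816-86854845: aaggaggaggctgcagaatacgctaaactt
mt-Cytb, chrM:14702-14731: atttattatcgcggccctagcaatcgttca
Rack1, chr11:48801734-48801763: ggtcactcccacttcgttagtgatgttgtt
Atp5b, chr10:128088413-128088442: tgctgagttgggcatctatccagctgtgga
Hspa5, chr2:34775816-34775845: agagcgcattgacaccaggaatgaattgga

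For each gene the share of the transcript's 50-base stretches with an exact copy elsewhere in the genome was counted, and is called shared sequence here. It was at most 5% for 8714 genes, which are called own-sequence genes, and above 5% for 1620. This threshold and the division were chosen after the values were seen. The median RNA difference was 0.02 over the 6361 genes with no shared sequence, -0.22 over the 469 genes with over 20% to 50%, -1.11 over the 243 genes with over 50% to 80% and -2.81 over the 85 genes above 80%. The median RPF difference stayed between -0.09 and 0.15 in all 6 classes. The median TE difference accordingly ran from -0.09 with no shared sequence to 2.92 above 80%, where 80 of 85 genes passed the test as higher in kidney and 0 as lower.

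**Figure D1:**
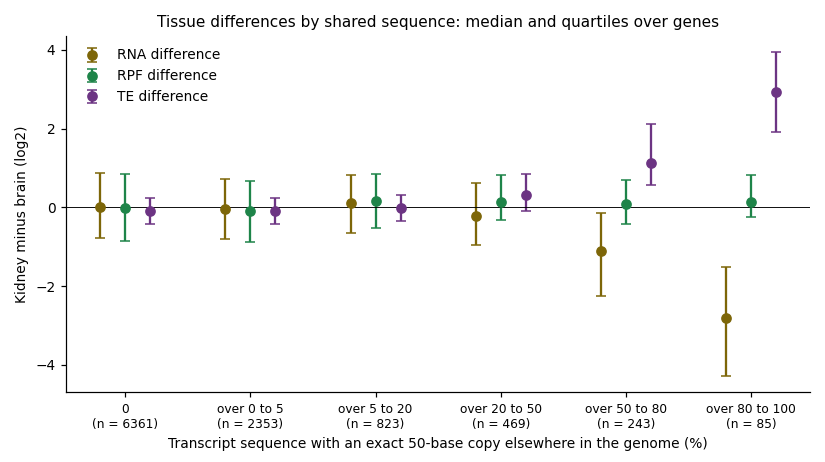
Median tissue difference (kidney minus brain, log2) of RNA, RPFs and TE for genes grouped by the share of transcript sequence found elsewhere in the genome, with quartiles over genes as bars and the number of genes under each class. The RNA median falls to -2.81 and the TE median climbs to 2.92 in the highest class, while the RPF medians stay between -0.09 and 0.15.

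The second feature concerns genes of other organs. A list of 30 genes known for their expression in liver, such as those of plasma proteins and urea cycle enzymes, was drawn up after the values were seen. It summed to 1138 to 3178 CPM in brain Ribo-seq but to 40.5 to 41.7 CPM in brain RNA-seq. In kidney, which itself expresses several of them, it summed to 7565 to 8650 CPM in Ribo-seq and 6147 to 8558 CPM in RNA-seq. Of the defining members, Alb (serum albumin) had 1692 to 2957 counts in brain Ribo-seq, and Cps1, the entry enzyme of the urea cycle, had 290 to 325. Kidney RNA-seq libraries all had 0 counts of Cps1, Tat and Ahsg, and kidney Ribo-seq had 2 to 17 of Cps1. The 9 kidney markers reached 11.0 to 29.5 CPM among the brain footprints, above their 2.09 to 2.31 CPM in brain RNA-seq. Most of this sum was Lrp2 alone, at 27.3, 7.32 and 12.8 CPM in brain Ribo-seq. The 9 brain markers reached 18.5 to 21.3 CPM in kidney Ribo-seq. Most of that was Map2 (8.64, 10.6 and 12.1 CPM) and Mbp (5.30, 5.96 and 6.17 CPM). The part of these footprints in the TE differences was not tested beyond the values given beside the genes.

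Most tissue differences in mRNA were carried into footprints. Of the 10334 genes, 7889 passed the test for RNA (76.3% of all tested, by the quasi-likelihood test of edgeR at an adjusted p under 0.05) and 7399 for RPFs (71.6%). Both passed in 6421 genes, and the direction was the same in 6179 and opposite in 242. TE differed in 2456 genes (23.8%), of which 1136 were higher in kidney (11.0%) and 1320 lower (12.8%). The balance turned with scaling by library totals alone, where 1245 were higher and 1017 lower. Among own-sequence genes 1836 of 8714 passed for TE (21.1%), 655 higher (7.52%) and 1181 lower (13.6%). Among the 1620 genes with more shared sequence 620 passed (38.3%), and 481 were higher (29.7%) and 139 lower (8.58%).

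The spread of the differences across genes was close for both layers. Over all genes the SD was 1.76 for RNA, 1.64 for RPFs and 0.84 for TE. The slope of the RPF difference on the RNA difference was 0.817 ± 0.0209 (SD of the slopes of the 3 replicate numbers). Each of the 3 slopes set kidney against brain libraries of equal number, which no label pairs across tissues. They ran from 0.782 to 0.824. The correlation was 0.881 (Pearson's r) or 0.862 (Spearman's rho) across genes, which are not independent replicates. Over own-sequence genes the SDs were 1.73, 1.68 and 0.65, the slope was 0.899 ± 0.0178, r was 0.928 and rho 0.901. There the 3 slopes by number ran from 0.865 to 0.899, so their SD is not a spread around the slope given. Over the genes with more shared sequence the slope was 0.496 ± 0.0175. The slopes stayed below 1, and a slope of this kind is also lowered by error in the RNA values.

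Footprints neither exceeded nor fell short of mRNA as a rule. Among the 5383 own-sequence genes that passed both tests in the same direction, the RPF difference was the smaller one in 2566 (47.7%) and the larger in 2817. Counting only genes that also passed for TE, the RPF difference was larger in 574 and smaller in 462. Large TE differences were the minority, since 9.08% of own-sequence genes had a TE difference beyond 1 in either direction, against 42.2% for RNA and 43.2% for RPFs. Among the 1836 own-sequence genes that passed for TE, 453 had RNA within 0.5 and RPFs that differed, 426 had RPFs within 0.5 and RNA that differed, and 127 passed for both in opposite directions.

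The direction of small TE differences rested on where 0 was set. With scaling over all genes, the own-sequence genes had a median TE difference of -0.09. The 2670 own-sequence genes with at least 100 counts in every library had -0.20, and 621 of them passed (23.3%), of which 92 were higher in kidney (3.45%) and 529 lower (19.8%). Scaled and tested on those 2670 genes alone, their median was -0.02, with 193 higher and 259 lower. The sign of a TE difference of about 0.2 or less thus depended on the scaling.

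The largest positive TE differences were in genes with shared sequence. The 10 genes that led this direction were mt-Nd4l, mt-Co3, Rps29, Ftl1-ps1, Ppia, Nat8f7, Zbed5, Rps6, Gstp2 and Rps23, with TE differences of 6.75 to 11.44 and shared sequence of 13.9% to 100%. mt-Co3 encodes a subunit of cytochrome c oxidase in the mitochondrial genome. Its footprints were at 1909, 2481 and 2839 CPM in kidney and 1273, 1193 and 1346 CPM in brain. Its mRNA was at 15.6, 13.8 and 10.3 CPM in kidney and 18613, 17284 and 11104 CPM in brain. The TE difference of 11.13 (SE 0.37, adjusted p = 3.34e-11, edgeR) thus had an RPF part of 0.92 and an RNA part of -10.20.

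The mitochondrial genome shows the same contrast within 1 set of transcripts. mt-Cytb, which encodes cytochrome b, has no shared sequence. It had footprints of 1972, 2346 and 2771 CPM in kidney against 1055, 924 and 1158 CPM in brain. The mRNA level was 41473, 45276 and 34706 CPM against 17737, 16790 and 10949 CPM, so both layers were higher in kidney without overlap and TE did not pass (-0.24, SE 0.31). mt-Nd6 was alike, with an RPF difference of 1.55, an RNA difference of 1.82 and a TE difference of -0.27. Of the 10 mitochondrial genes tested, mt-Nd4l, mt-Co3, mt-Nd3, mt-Co1 and mt-Nd5 passed as higher in kidney, and they have 7.61% to 100% shared sequence. mt-Nd4 and mt-Nd2, with 62.2% and 8.29%, had TE differences of 0.34 and -0.16 and did not pass. None of the 3 with own sequence passed. mt-Co2, mt-Atp6 and mt-Atp8 fell out of the test, with 0 to 20 counts in kidney RNA-seq against 120374 to 741388 in brain RNA-seq.

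Cytosolic ribosomal proteins, whose mRNAs are the classical TOP group and have many processed pseudogenes, followed this pattern. Of 77 tested, 45 were higher in kidney and 4 lower, with a median TE difference of 1.08 beside 11.0% higher, 12.8% lower and a median of -0.06 over all genes. Rps6, a protein of the small subunit, had footprints of 87.5, 73.6 and 110 CPM in kidney and 85.6, 82.1 and 79.2 CPM in brain, which overlapped. In RNA-seq it was at 3.52, 2.43 and 1.64 CPM in kidney and 325, 325 and 270 CPM in brain. Rps3, also of the small subunit, had own sequence and a TE difference of 0.00 (SE 0.18). Ppia, the abundant prolyl isomerase cyclophilin A, had an RPF difference of -0.09 and an RNA difference of -8.36. Of the 77 ribosomal protein genes tested, 75 had over 5% shared sequence, and they held all 45 higher calls.

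The other TOP mRNAs had few own-sequence members. Of 24 listed translation factors and related genes, 4 had own sequence, and 3 of these were lower in kidney, beside 13.6% lower and 7.52% higher over all own-sequence genes. Rack1, a scaffold protein of the small ribosomal subunit (chromosome 11, 48800332 to 48806434, plus strand), had footprints of 231, 187 and 254 CPM in kidney and 179, 187 and 176 CPM in brain. For mRNA the levels were 556, 624 and 404 CPM in kidney and 155, 159 and 155 CPM in brain. The mRNA was higher in every kidney library while the footprints differed by 0.31, and TE differed by -1.44 (SE 0.22, adjusted p = 1.89e-04, edgeR). The initiation factor 3 subunits Eif3f and Eif3l had TE differences of -1.04 (SE 0.18) and -0.65 (SE 0.14), and Eif3k had -0.19, which did not pass. Of the 20 further members 6 were higher and 4 lower, the latter including the elongation factor Eef2 at -1.76 with 10.5% shared sequence.

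The first 20 bases of the annotated transcripts (GRCm38, 5′ to 3′) show whether they open with a pyrimidine run, given in capitals. They are shown because the TOP tract must stand at the very start.
Rack1, chr11:48800360-48800379: CTTTTTCTCCacagggtcgt
Eif3f, chr7:108934417-108934436: CTCTTTCTCggcaagatggc
Eif3l, chr15:79075179-79075198: Tgggcgggacttccggtccg
Eif3k, chr7:28981795-28981814: acacctctcttccggtcctc
The annotated starts of Rack1 and Eif3f open with C and 10 and 9 pyrimidines in a row. Those of Eif3l and Eif3k do not, and the annotated start need not be the one used in these tissues. A start with C and a run of at least 5 pyrimidines was present in 184 of the 8714 own-sequence genes (2.11%). Their median TE difference was -0.17, with 11 higher in kidney (5.98%) and 35 lower (19.0%). The other 8530 had a median of -0.09, with 7.55% higher and 13.4% lower.

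The largest negative TE differences included many liver genes. The 10 that led were Alb, Pdzk1ip1, Apoa2, Bspry, Pzp, Bhmt, Adh1, Apob, Apoh and Atl1, at -6.99 to -4.19, and all but Pdzk1ip1, Bspry, Bhmt and Atl1 are on the liver list. Alb had footprints of 539, 933 and 293 CPM in brain and 33.4, 8.81 and 11.2 CPM in kidney. Its mRNA was at 1.14, 1.33 and 1.12 CPM in brain and 5.57, 3.42 and 6.10 CPM in kidney. Footprints were higher in brain and mRNA higher in kidney, each without overlap. The TE difference was -6.99 (SE 0.69, adjusted p = 3.14e-06, edgeR).

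Of the 30 liver genes 13 passed the count filter, and 12 of these were lower in TE in kidney, with a median of -4.10. They were chosen for their footprints in brain Ribo-seq, so the count describes the choice. Apob, the core protein of lipoproteins, had 63.0, 98.4 and 35.5 CPM of footprints in brain beside 0.424, 0.380 and 0.428 CPM of mRNA. In kidney it had 885, 974 and 692 CPM of footprints beside 130, 98.1 and 154 CPM of mRNA. The membrane protein gene Pdzk1ip1 is not on the list, and its brain footprints varied from 6.50 to 30.6 CPM between libraries.

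Leading own-sequence genes in the other direction had low kidney mRNA. Olfr77, Wdr38, Adra2c, Mbp, Rspo1, Slco1a4, Ccsap, Ppp1r3f, Cpeb4 and Igsf10 had TE differences of 2.77 to 5.89. Adra2c encodes an adrenergic receptor and has no shared or overlapping sequence. Its footprints were at 26.9, 30.1 and 20.2 CPM in kidney and 14.9, 11.8 and 8.99 CPM in brain. The mRNA level was 0.821, 1.43 and 1.11 CPM in kidney and 16.2, 15.2 and 15.0 CPM in brain. Kidney was the higher tissue in footprints and the lower one in mRNA, and the TE difference was 4.88 (SE 0.32, adjusted p = 2.89e-08, edgeR). Of Wdr38, 30.6% overlaps the ribosomal protein gene Rpl35, whose reads cannot be told apart from its own there. Mbp, the myelin basic protein, had 5.30, 5.96 and 6.17 CPM of footprints in kidney against 644, 651 and 579 CPM in brain. Its kidney mRNA lay at 0.787 to 1.70 CPM, and the TE difference was 4.29. With counts summed over isoforms it was 2.36 for Mbp and 0.93 for Cpeb4, and both still passed.

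Genes with at least 100 counts in every library rest on the most reads. The 10 that led towards brain among them were Prepl, Larp1b, Polr2b, Col1a1, Acot11, Ntn4, Mettl26, Rnf130, Ngef and Cndp2, at -2.96 to -1.83. All 10 also passed with counts summed over the isoforms of a gene, at -2.99 to -1.41. This set was chosen after the values were seen.

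Polr2b encodes a core subunit of RNA polymerase II (chromosome 5, 77310147 to 77349324, plus strand). Its footprints were at 106, 123 and 110 CPM in kidney and 117, 113 and 125 CPM in brain. In RNA-seq it was at 216, 251 and 240 CPM in kidney and 36.7, 33.1 and 43.5 CPM in brain. The mRNA differed 6.24-fold and the footprints overlapped, which gave a TE difference of -2.71 (SE 0.17, adjusted p = 2.42e-08, edgeR). Larp1b, a member of the La-related RNA-binding family, had the same form. Its RNA difference was 2.97 and its RPF difference 0.06. Rnf130, a RING-type ubiquitin ligase, differed in opposite directions, with footprints of 69.8, 69.7 and 62.8 CPM in kidney against 109, 110 and 136 CPM in brain. For mRNA the levels were 106, 103 and 104 CPM against 46.6, 46.2 and 53.0 CPM.

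Prepl, which encodes a serine hydrolase of the prolyl oligopeptidase family (chromosome 17, 85063470 to 85090241, minus strand), differed in the same direction in both layers, with the larger difference in footprints. Its footprints were at 46.3, 46.9 and 45.7 CPM in kidney and 622, 646 and 532 CPM in brain. Its mRNA was at 34.8, 29.6 and 56.1 CPM in kidney and 53.9, 48.6 and 97.2 CPM in brain. Footprints were far apart. The mRNA groups overlapped, although the RNA difference of -0.73 (SE 0.25) passed the test, and the TE difference was -2.96 (SE 0.36, adjusted p = 2.40e-05, edgeR). Ngef, a guanine nucleotide exchange factor of Eph receptor signalling, and Fbxw7, a substrate receptor of SCF ubiquitin ligases, also exceeded their mRNA. Ngef had an RPF difference of -3.02 and an RNA difference of -1.18. Fbxw7 had -5.64 and -2.56, with 11 to 27 kidney footprints in count. Cndp2, a cytosolic dipeptidase, had an RPF difference of 3.99 that fell short of its RNA difference of 5.83.

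Some of these genes differed in footprints at near-equal mRNA. Of the 182 such genes 157 were lower in TE in kidney, about the share among all TE calls of these genes (529 of 621), so the count is not particular to them. The 5 that led were Csf1r, Cd47, Scd1, Rufy3 and Helz. Csf1r, the receptor that marks macrophages and microglia, had 57.0, 48.5 and 49.6 CPM of footprints in kidney and 174, 138 and 185 CPM in brain. The mRNA level was 79.8, 85.2 and 76.1 CPM in kidney and 75.2, 69.5 and 80.1 CPM in brain, with a TE difference of -1.78 (SE 0.18). Cd47, a surface protein that restrains phagocytosis, had RPF and RNA differences of -1.52 and 0.22. Rufy3 and, in another category, the RNA-binding protein gene Qk depended on the isoform. Their TE differences of -1.29 and -1.51 were 0.43 and 0.26 with counts summed per gene and no longer passed.

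The 10 genes with at least 100 counts that led towards kidney were Eml2, Itsn1, Srsf1, Inpp5f, D17Wsu92e, Asph, Gatm, Erbb4, Epb41l1 and Pcbp4, at 1.32 to 2.12. Inpp5f encodes a phosphoinositide phosphatase (chromosome 7, 128611328 to 128696425, plus strand). Its footprints were at 69.4, 70.7 and 76.5 CPM in kidney and 59.9, 53.7 and 61.4 CPM in brain. In RNA-seq it was at 56.7, 56.9 and 58.9 CPM in kidney and 148, 152 and 134 CPM in brain. Footprints were higher in kidney and mRNA higher in brain, each without overlap, and TE differed by 1.63 (SE 0.15, adjusted p = 1.23e-06, edgeR).

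Gatm, the first enzyme of creatine synthesis, was the leading gene whose kidney excess in mRNA was exceeded by its footprints. Footprints were at 1358, 1915 and 1184 CPM in kidney and 71.6, 88.6 and 73.2 CPM in brain. The mRNA was at 841, 999 and 663 CPM in kidney and 125, 123 and 104 CPM in brain, which gave an RPF difference of 4.26, an RNA difference of 2.83 and a TE difference of 1.43 (SE 0.27). Erbb4, a receptor for neuregulins, Eml2, a microtubule-associated protein, and Itsn1, an endocytic scaffold, had RNA differences of -1.82, -2.91 and -2.81. Their RPF differences were smaller in size at -0.39, -0.79 and -0.97. With counts summed per gene Pcbp4 and Asph no longer passed (TE differences of -0.039 and 0.36), and Srsf1 and D17Wsu92e were at 0.92 and 0.74.

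Gene lists were described by their own-sequence members, beside a median of -0.09 and shares of 7.52% higher and 13.6% lower over all 8714 own-sequence genes. In the same fit, the 2670 of these with at least 100 counts in every library had a median of -0.20, with 3.45% higher and 19.8% lower. The lists differ in how many such genes they hold. The list of endoplasmic reticulum chaperones, which also holds related genes such as Sel1l, Syvn1, Herpud1 and Xbp1, stood among the lower ones. Of 17 members 8 were lower in kidney and 0 higher, with a median TE difference of -0.52. The 8 were Hspa5, P4hb, Hsp90b1, Sel1l, Canx, Calr, Pdia3 and Dnajc3, at -0.99 to -0.73. Hspa5, the main chaperone of the compartment, had overlapping footprints of 1022, 914 and 686 CPM in kidney and 911, 803 and 839 CPM in brain. For mRNA the levels were 785, 633 and 584 CPM in kidney and 405, 257 and 322 CPM in brain. Scaled and tested on the genes with at least 100 counts alone, 5 of 15 members were lower, with a median of -0.55.

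Subunits of the respiratory chain encoded in the nucleus had a median of -0.40, and 9 of 44 were lower and 0 higher. Atp5g3, Atp5b and Atp5a1, all of ATP synthase, led at -1.23, -0.96 and -0.88. Atp5b had footprints of 2333, 2960 and 2876 CPM in kidney and 1389, 1692 and 1381 CPM in brain. Its mRNA was at 3009, 3129 and 3453 CPM in kidney and 862, 861 and 966 CPM in brain. Both layers were higher in kidney, the mRNA by more. Scaled on the genes with at least 100 counts, 4 of 42 members were lower, a share like the 259 of 2670 over all genes there, and with limma voom 21 of 44 were lower and 1 higher. The count of lower members thus depended on the setting. The same list without regard to shared sequence had 11 of 76 lower and 7 higher, beside 12.8% and 11.0% over all genes, and the higher ones were led by Atp5l at 5.59 with 82.6% shared sequence.

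Further lists are given by their counts, beginning with fatty acid oxidation, which differed more in level than in TE (median TE difference -0.27). The 15 enzymes of fatty acid oxidation had median RNA and RPF differences of 3.55 and 3.11, and the carnitine transferases Cpt1a and Cpt2 and the electron carrier Etfb were lower in TE. The call for Cpt2 (-0.58) was lost in 13 of 23 alternatives. Of 12 enzymes of the tricarboxylic acid cycle only Suclg1 passed (-0.60). Of 54 mitochondrial ribosomal proteins 2 were higher and 2 lower, of 27 proteasome subunits 2 were higher and 1 lower, and of 24 initiation factors 0 were higher and 4 lower. Of 13 subunits of the vacuolar ATPase 4 were lower, with a median TE difference of -0.29. Scaled on the genes with at least 100 counts, the lower calls were 1 of 9 for fatty acid oxidation, 0 of 12 for the tricarboxylic acid cycle, 2 of 18 for initiation factors and 0 of 10 for the vacuolar ATPase.

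Tissue marker lists kept few members, since a gene had to be counted in both tissues. Of 35 genes of kidney segments 9 were tested and 5 were lower in TE in kidney, among them Lrp2, Aqp1, Slc22a6 and Calb1. Lrp2 had footprints of 5484, 6356 and 5129 CPM in kidney and 27.3, 7.32 and 12.8 CPM in brain, and mRNA of 1927, 1797 and 1831 CPM against 1.21, 0.570 and 0.790 CPM. Its TE difference of -2.67 (SE 0.46) therefore rests on few reads in brain. Of 50 neuronal and synaptic genes 18 were tested, with 3 higher and 7 lower. Shank1, Shank3 and Shank2, scaffolds of the postsynaptic density, were higher at 2.44, 1.19 and 0.77, and the microtubule-associated Map1a and the scaffolds Homer1 and Dlg3 led the lower ones at -2.42, -1.58 and -1.56. With counts summed per gene Homer1 was at -0.48 and did not pass. Of 8 immune cell genes 3 were lower, Csf1r, Cd74 and Ptprc.

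Matrix genes were described by collagens and laminins. Of 19 collagens 3 were higher in kidney, Col6a1, Col5a1 and Col4a2 at 2.21, 1.32 and 1.18, and 3 were lower, Col1a1, Col1a2 and Col3a1 at -2.21, -1.52 and -1.13. The lower ones are chains of collagen types I and III. The counts moved to 9 higher and 2 lower with limma voom and to 6 and 3 with the replicate block within tissue. Col1a1 had footprints of 168, 150 and 117 CPM in kidney and 104, 169 and 274 CPM in brain, which overlapped, and mRNA of 30.7, 51.2 and 55.6 CPM against 12.5, 12.3 and 12.6 CPM. Of 14 laminins and basement membrane genes 3 were lower, among them Lama1 and Lama5, and Agrn was higher.

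Lists with known control of translation gave single calls. Of 16 selenoproteins, which decode UGA as selenocysteine, Selenow and Selenoo were higher and Gpx3, Gpx1 and Selenop lower. Gpx3, the plasma glutathione peroxidase made in kidney, had 2888, 4227 and 4097 CPM of footprints and 29628, 32669 and 24997 CPM of mRNA in kidney. In brain it had 11.8, 19.1 and 27.0 CPM of footprints and 18.6, 22.4 and 23.0 CPM of mRNA. Of 14 genes with upstream open reading frames or of the stress response Bace1, Ddit3 and Eprs were lower, and Ddit3 lost its call in 11 of 23 alternatives. Of 8 genes with iron-responsive elements or related iron genes the iron importer Slc11a2 was higher (1.04, SE 0.30) and the ferritin subunit Fth1 lower (-0.80, SE 0.28). The call for Fth1 was lost in 13 of 23 alternatives. Of 14 immediate early genes 0 passed, and of 12 clock genes only Rora (-1.40).

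Properties of the transcript were weakly related to TE over own-sequence genes. Spearman's rho across genes with the TE difference was 0.10 for GC content of the coding sequence, -0.08 for protein length, -0.08 for 5′ UTR length, -0.05 for 3′ UTR length and -0.04 for the number of upstream ATGs. Genes were split into 5 equal groups by each property. In the group with the highest coding GC content (58.2% to 76.7%) 10.8% were higher in kidney and 9.06% lower, and in the lowest group (34.2% to 47.4%) the shares were 6.25% and 15.7%. In the group with the shortest proteins, up to 279 residues, 6.83% were higher and 8.09% lower. In the group with the longest, 8.09% were higher and 16.8% lower, so both shares were larger. The median TE differences of these groups were -0.02 and -0.13.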

How the data were processed

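For Ribo-seq the authors isolated RNase I footprints, and for RNA-seq poly(A) RNA. They aligned with STAR and counted with featureCounts, and deposited raw counts per transcript. Versions are not given in the sources used here. The human table has 28 columns named with mouse titles and was not used. Members and gene lists were chosen with earlier results of these data known. Libraries were scaled by TMM within each assay, and TE was the tissue by assay term of a 4-group model (edgeR 4.0.16 quasi-likelihood test, R 4.3.3, Benjamini-Hochberg adjustment over all 10334 genes, threshold 0.05). An SE is the difference over the square root of F. The script was tested on simulated counts. GENCODE M21 and GRCm38 gave positions and shared sequence (Python 3.11.15, numba 0.67.0), leaving out stretches with 10 or fewer bases on one side of a splice junction.

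Named genes were, among TE calls whose 9 RPF to RNA ratios per tissue did not overlap between tissues, the 10 largest in each direction, up to 3 calls per list (the largest member where none was called), and 5 each with RNA within 0.5, with RPFs within 0.5, with opposite signs and with larger RPF differences, without Gm and Rik names. The rule was repeated on own-sequence genes and on those with at least 100 counts. Genes outside it were chosen after their values were seen, such as mt-Cytb, mt-Nd6, Rps3, Eif3k and the further list members. Footprint and mRNA libraries with equal numbers deviated together within kidney (correlation 0.133 to 0.212) and within brain (0.176 to 0.433). Brain Ribo-seq replicate 1 correlated more with a brain RNA-seq library of another number. Replicate 3 of brain held the pituitary markers in both assays, and replicate 2 of brain had the highest blood markers in both. Numbers 2 and 3 of brain thus appear to pair footprint and mRNA libraries, although no label states it. For number 1 of brain and for kidney this is not settled. The main p-values and SEs come from a model without such pairs, which ignores those in brain. With pairs within each tissue 3094 genes passed for TE, against 2456. Some results are not reported here.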

Additional observations from a re-analysis of the deposited data

Results flagged for a closer look

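Transcripts annotated as processed pseudogenes lie outside the comparison and carried counts in all 4 groups. Their share of a library's counts reached 4.74% in kidney Ribo-seq, 4.21% in brain Ribo-seq, 1.68% in brain RNA-seq and 0.0331% in kidney RNA-seq. The 4 genes of the nuclear mitochondrial copy on chromosome 1 were also lowest in kidney RNA-seq, but highest in brain RNA-seq. Gm28437, the copy of mt-Co3, had 9573 to 13694 counts in kidney Ribo-seq and 22 to 55 in kidney RNA-seq, against 337110 to 571107 in brain RNA-seq. The origin of the gap in kidney RNA-seq was not tested. With 3 libraries per group, single libraries were not screened as outliers.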

How the results depend on the processing

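Precision is limited by 3 libraries per group and by the Ribo-seq depth, and TE of genes near 10 counts is the least certain. Of 3952 values of 174 genes under the alternatives, 3799 kept direction and side of the threshold, 130 no longer passed, 9 newly passed and 14 changed sign. The call of Hsp90b1 was lost in 3 of 24 alternatives, those of P4hb and Suclg1 in 2 and those of Etfb and Gpx1 in 1. Scaling over all 12 libraries, library totals alone, DESeq2, summed counts and both replicate blocks moved no count of calls by over 1.5 times. With the replicate block within tissue 3094 genes passed for TE, including 2438 of the 2456. With the replicate block over all groups 1266 were higher and 1439 lower.

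With looser count filters more genes were tested and counted. With filterByExpr and with no filter beyond 1 count, 2573 and 2673 genes were higher in TE, 11692 and 11619 passed for RPFs, 12825 and 13405 for RNA, and the slope was 0.660 and 0.634. Among own-sequence genes these settings gave 1727 and 1792 higher in TE, 10032 and 9935 for RPFs, 10839 and 11220 for RNA, and slopes of 0.710 and 0.683, and limma voom gave 1107 higher in TE (the cause was not tested). Alternatives added after seeing the data tested fewer genes. Own-sequence genes alone gave 742 higher and a slope of 0.899, 28-base matches gave 681 higher, 868 lower and 0.903, and own-sequence genes with at least 100 counts gave 193 higher, 259 lower, 1934 for RPFs, 2017 for RNA and 0.887.

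Leaving out 1 library at a time gave 924 to 1400 genes higher and 992 to 1490 lower in TE, 6951 to 7564 for RPFs, 7461 to 7879 for RNA and slopes of 0.806 to 0.821. For own-sequence genes it gave 480 to 874, 885 to 1329, 5972 to 6479, 6279 to 6627 and 0.887 to 0.903. With counts summed per gene TE reversed to -0.039 for Pcbp4, 0.26 for Qk and 0.43 for Rufy3. Kdr, at -0.47 and not called, reached 0.029 with voom. Rps3, near 0, was at -0.024 with DESeq2, -0.0033 summed, -0.034 with voom, -0.0077 with the block within tissue and -0.121 to 0.0965 without single libraries.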

Other observations

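Some libraries held transcripts of neighbouring tissues. Brain replicate 3 had 12803 footprints and 52051 RNA counts of the pituitary hormone gene Gh, against 2 to 8 in the other brain libraries, and the pituitary markers Gh, Prl and Pomc summed to 2900 and 2163 CPM there. Brain replicate 2 had the highest haemoglobin and other blood markers, 6926 CPM in Ribo-seq and 7198 CPM in RNA-seq, against 2273 to 2614 CPM in the other brain libraries. Both layers carried these genes in the same replicate.

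Some genes of pancreatic acinar cells had footprints and few or no RNA counts, and others had both. Cpa1, a carboxypeptidase, had 308, 6 and 24 counts in kidney Ribo-seq and 109, 18 and 12 in brain Ribo-seq, and 0 in all 6 RNA-seq libraries. The elastase gene Cela1 had 813, 143 and 160 footprints in kidney and 181, 4 and 5 in brain, beside 1384 to 2323 RNA counts in kidney and 64 to 93 in brain. For both genes replicate 1 was the highest Ribo-seq library of each tissue. None of the 14 adipocyte and pancreatic genes passed the count filter, so none enters the TE comparison. The cause was not tested.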
